A study of Rattus norvegicus with 10 samples.

Results

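The Sgk2 locus was examined as the 34 measured tiles that start within 100 kb of a tile at an exon of Sgk2, out of 176032 tiles in the whole table. A tile is a window of 1000 bp, and its value is the percentage of methylated calls over the covered CpGs in it. The exonic tile spans positions 151656001 to 151657000 of chromosome 3 in mRatBN7.2 (rn7). It was selected on the difference in its methylation between the lines, so its own difference is given as a description with no test. The other 33 tiles were taken by position alone, 17 at lower coordinates (called "before" here) and 16 at higher coordinates ("after"). They address whether the difference between the lines was held by the exonic tile or shared by its measured surroundings. The window has room for 201 tiles, so most of it had no value and could not be examined. Hippocampal DNA came from 4 HCR (high-capacity runner) and 6 LCR (low-capacity runner) rats, lines bred in opposite directions for intrinsic running capacity from the outbred N:NIH stock. The paper profiled 6 rats of each line and left out the HCR samples that failed its quality control, which drew on a PCA. What this exclusion did to the spread among HCR rats was not tested. All rats were females of generation 44, aged 23 to 24 months, without structured exercise training, running wheels or treatment, and each rat gave 1 library. According to the paper, all animals also went through treadmill VO2max testing and the Morris water maze. RRBS cuts DNA with MspI, which recognises a CpG-containing site, and reads the CpGs near the cuts after bisulfite treatment. Depth is unknown for single tiles, and counting error could therefore not be given.

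Sgk2 encodes a serine/threonine kinase of the serum- and glucocorticoid-regulated kinase family, close relatives of Akt within the AGC kinases. These kinases are switched on downstream of phosphoinositide 3-kinase by phosphorylation through mTORC2 and PDK1. The best known member, SGK1, is induced by glucocorticoids and acts on ion channels and transporters, in part by phosphorylating the ubiquitin ligase NEDD4-2, as shown mainly with human and rodent proteins. CpG methylation inside a transcribed gene is common in mammals, whereas CpG-rich promoters are usually free of it, and a methylation value alone says nothing about the level of the transcript. In the RefSeq annotation of a later rat assembly (GRCr8), the protein-coding genes that precede Sgk2 are Srsf6, a splicing factor gene, and L3mbtl1, which encodes a reader of methylated histones. Those that follow are Ift52, a gene of intraflagellar transport in cilia, the cell cycle transcription factor gene Mybl2, and Gtsf1l. No annotation of mRatBN7.2 was used here, so single tiles were not assigned to these neighbouring genes. The tables of the study give an exonic feature of Sgk2 in the open sea for the central tile, which means that it lies away from CpG islands. None of the other 33 tiles is among the rows used here, which are only a part of the study's list. The DNA sequence of the tile was not used here.

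The exonic Sgk2 tile was at an intermediate level in HCR rats and nearly unmethylated in LCR rats. It stood at 36% in HCR rat 1, 49.8% in rat 11, 46% in rat 15 and 58.9% in rat 19. In the LCR rats it ranged from 1.52% in rat 30 over a median of 5.19% to 9.85% in rat 22. The lines did not overlap, and the lowest HCR rat lay 26.2 points above the highest LCR rat. The means were 47.7% ± 9.47 (SD, n = 4) and 5.54% ± 2.89 (SD, n = 6), 42.1 points apart. Among the 176004 tiles compared between the lines, 118 had an absolute difference at least as large.

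**Figure D1:**
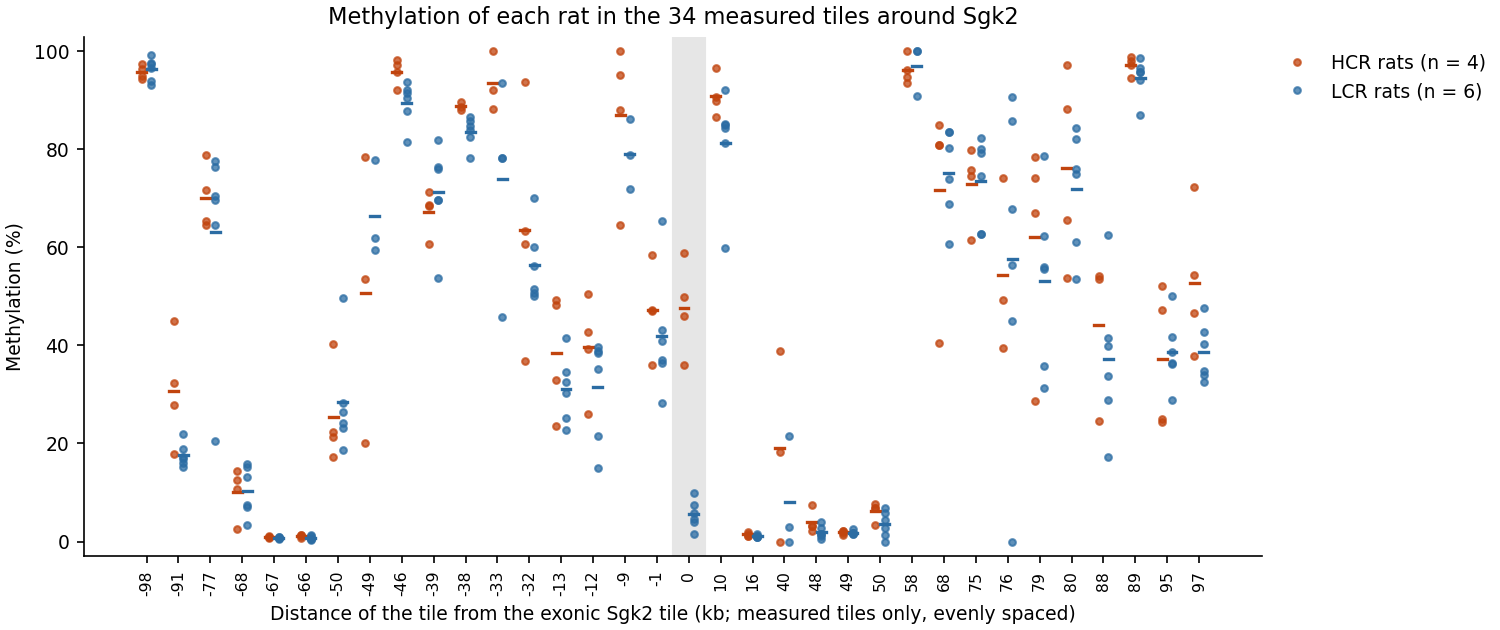
Methylation in percent (vertical axis) of each of the 34 measured tiles around the exonic Sgk2 tile (grey band), ordered by distance in kb, with 1 point per rat and a short line at the mean of the 4 HCR and of the 6 LCR rats (fewer where a rat has no value). The exonic tile separates the lines, with HCR rats at 36% to 58.9% and LCR rats at 1.52% to 9.85%, while the lines overlap in each of the 25 neighbours with a value in every rat.

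The adjoining tile, 1 kb before, did not share the difference. It covers 151655001 to 151656000 and was at 47.2% in HCR rat 1, 46.9% in rat 11, 58.4% in rat 15 and 36.1% in rat 19. LCR rats ranged from 28.3% in rat 24 over a median of 39% to 65.4% in rat 18, so both the highest and the lowest value belonged to LCR rats. The means were 47.2% ± 9.13 (SD, n = 4) and 41.8% ± 12.6 (SD, n = 6). The difference of 5.33 points had a 95% interval of -12.5 to 23.1 and did not pass the test (adjusted p = 0.928, limma with Benjamini-Hochberg adjustment over all tested tiles). The size of this difference hung on single rats, at 10.03 points without LCR rat 18, 9.02 without HCR rat 19, 2.61 without LCR rat 24 and 1.57 without HCR rat 15, and after quantile normalization its sign turned, at -0.634 points.

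Set against this neighbour, the exonic tile was lower in all 6 LCR rats, whereas it was lower in 2 HCR rats and higher in 2. The adjoining tile exceeded the exonic one by 11.2 points in HCR rat 1 and 12.5 in rat 15, and the same difference was -2.88 points in rat 11 and -22.8 in rat 19, with a mean of -0.489 ± 16.4 (SD, n = 4). In LCR rats it was higher in every animal, by 23.6 points in rat 24 to 59.6 in rat 18, with a mean of 36.3 ± 12.8 (SD, n = 6). These contrasts use the tile that was picked for its difference and are given as a description. Across the 10 rats, Pearson's r between both tiles was 0.178, and -0.241 after the mean of each line was removed. The median r over 30811 pairs of adjoining tiles in the same libraries was 0.152. These correlations describe tiles read from the same 10 libraries and carry no p.

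**Figure D2:**
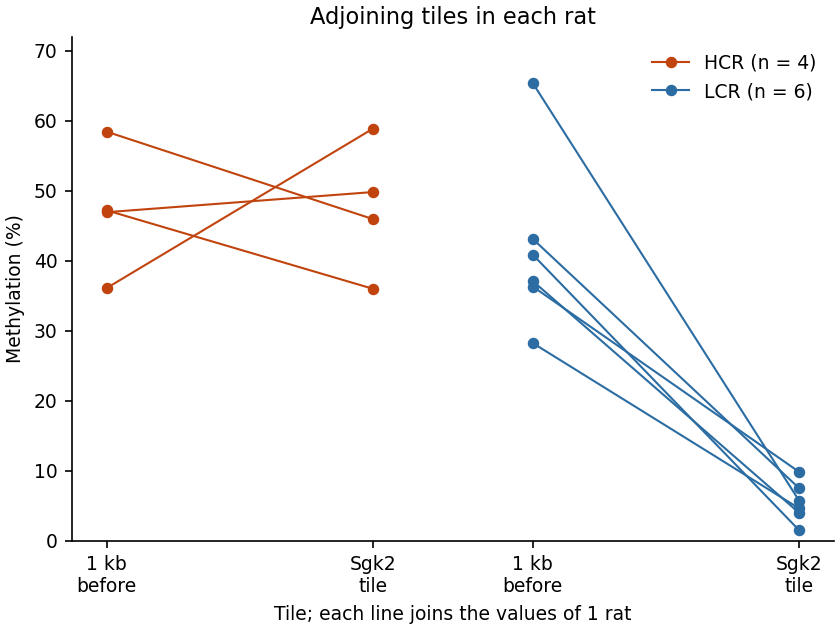
Methylation in percent of the tile 1 kb before and of the exonic Sgk2 tile, with 1 line for each rat (left, 4 HCR rats; right, 6 LCR rats). All 6 LCR lines fall to 9.85% or less at the exonic tile, whereas 2 HCR lines rise and 2 fall.

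On the other side no tile was measured until 10 kb after the exonic one, and on the lower side the adjoining tile was followed by one 9 kb before. The tile 10 kb after (151666001 to 151667000) was highly methylated, at 89.8%, 90.8%, 96.7% and 86.7% in HCR rats 1, 11, 15 and 19, and at 59.9% to 92.2% in LCR rats (median 84.7%). Its difference was 9.67 points (standard error 5.37, limma adjusted p = 0.760), and the lines overlapped. LCR rat 12 alone kept them from separating, since the other LCR rats reached 85.2%. Without that rat the limma adjusted p was 0.746. The tile 9 kb before had a value in 4 HCR and 3 LCR rats and averaged 86.9% and 79.01% (limma adjusted p = 0.891). The tile 12 kb before averaged 39.6% ± 10.2 (SD, n = 4) against 31.5% ± 10.6 (SD, n = 6), 8.18 points apart (limma adjusted p = 0.861).

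None of the 33 neighbours passed the test in limma, which asked for 5 points or more and an adjusted p below 0.1. These are the limits of the study, which applied them to a chi-square test on counts. The study listed at least 2347 of the tiles tested here, so the limma calls are not its calls. Those 2347 are the rows read here, and the full list of the study is longer. Over all tested tiles 0.0858% passed in limma, 151 in number, and the exonic Sgk2 tile is one of them. That tile was selected on its difference between the lines, so its call is not a result here. At an unadjusted p under 0.005 and 5 points, 0 neighbours were found, against 1.03% of all tested tiles. At an unadjusted p under 0.05 alone, 2 were found, 6.06% of the neighbours against 7.18% of all tested tiles. This count was 4 without LCR rat 30 and without the mean-variance trend, 3 without LCR rat 12 or HCR rat 15, and 1 with the mean of each rat set equal or the number of missing tiles as a covariate. No other tool was run. The smallest adjusted p of a neighbour was 0.559. In none of the 25 neighbours with a value in every rat were the lines free of overlap, against 1.89% of such tiles in the whole table. With 33 tiles, none or few calls would be usual at these background rates. The precision of single tiles was limited, with a median half-width of the 95% interval of 14.3 points over the neighbours. For 32 of the 33 the interval ended below the 42.1 points of the exonic tile, and for the tile 33 kb before it reached 43.3 points. Those 42.1 points belong to a tile picked for its difference and are no fixed mark. Their own interval in the same fit was 33.4 to 50.8 points. The intervals of the tiles 40 kb, 76 kb and 79 kb after ended at 35.2, 38 and 35 points, within that range.

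Most neighbours of Sgk2 had HCR rats on the higher side, as in the table as a whole before the levels of the rats were adjusted. The median absolute difference was 4.22 points among the neighbours and 2.93 among all tested tiles, and 16 neighbours differed by 5 points or more. HCR rats had the higher mean in 23 neighbours and the lower in 10, that is 69.7% higher against 64.7% of all tested tiles. The median signed difference was 2.63 points among the neighbours and 1.01 among all tested tiles. With the mean of each rat set equal, 19 of the 33 neighbours were higher in HCR rats against 42.8% of all tested tiles. The medians were then 0.721 and -0.904 points. After quantile normalization the count was also 19, against 44.2%, and the medians were 0.253 and -0.241. Without HCR rat 19 the median of the 27 neighbours still fitted was 0.856 points and that of all tested tiles 0.357. Absolute differences of 10 points or more occurred in 5 neighbours, 15.2% of them against 13.2% of all tested tiles, and none reached 20 points.

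**Figure D3:**
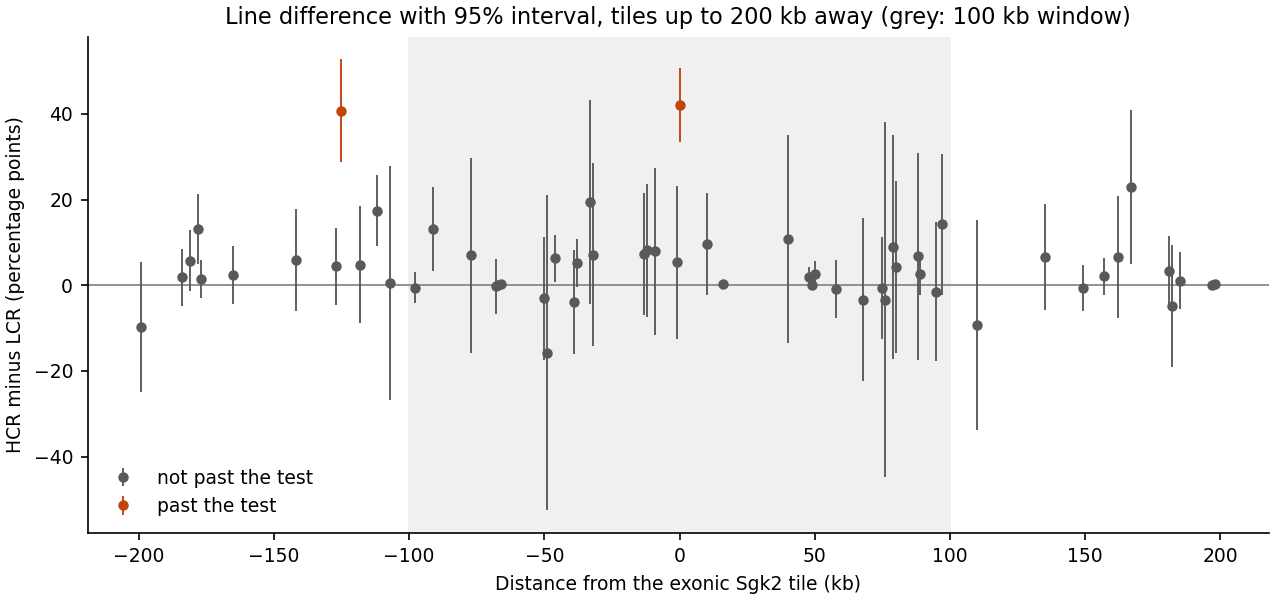
Difference in methylation between HCR and LCR rats in percentage points (vertical axis) with its 95% interval from limma, for every tested tile up to 200 kb from the exonic Sgk2 tile (horizontal axis, kb). The grey band is the window of 100 kb, in which the exonic tile stands at 42.1 points and its neighbours lie between -15.7 and 19.5; a second tile past the test lies 125 kb before.

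The neighbour that came nearest to a line difference was the tile 91 kb before, at 151565001 to 151566000. It was at 27.8% in HCR rat 1, 32.4% in rat 11, 17.9% in rat 15 and 45.1% in rat 19. LCR rats lay within a narrow band of 15.2% to 21.8%, with a median of 17.1%. HCR rat 15 fell inside that band and the other HCR rats lay above it. The means were 30.8% ± 11.3 (SD, n = 4) and 17.7% ± 2.37 (SD, n = 6), a difference of 13.1 points (standard error 4.43, unadjusted p = 0.0135 and adjusted p = 0.559 from limma). Without HCR rat 15 the difference was 17.4 points with an unadjusted p of 0.00126, and its adjusted p from limma was 0.292. Of the 25 neighbours with a value in every rat, this tile followed the exonic one most closely over the 10 rats, with a Pearson's r of 0.792. The r was 0.583 once the mean of each line was removed.

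The second neighbour at an unadjusted p under 0.05 was the tile 46 kb before, at 151610001 to 151611000. It was almost fully methylated, with means of 95.8% ± 2.69 (SD, n = 4) and 89.5% ± 4.4 (SD, n = 6). HCR rats 1, 11, 15 and 19 stood at 95.8%, 98.2%, 92.05% and 97.2%, and LCR rats at 81.5% to 93.8% with a median of 90.96%. The difference of 6.26 points had an adjusted p of 0.648 from limma. HCR rat 15 was again the animal within the range of the LCR rats, and without it the adjusted p was 0.570. The tile 38 kb before, with no value in HCR rat 15, was at 88.8% ± 0.861 (SD, n = 3) and 83.6% ± 3.02 (SD, n = 6), with a limma adjusted p of 0.719, and its lines did not overlap in the 9 rats measured. In the window as a whole, HCR rat 15 had no value in 4 neighbours.

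**Figure D4:**
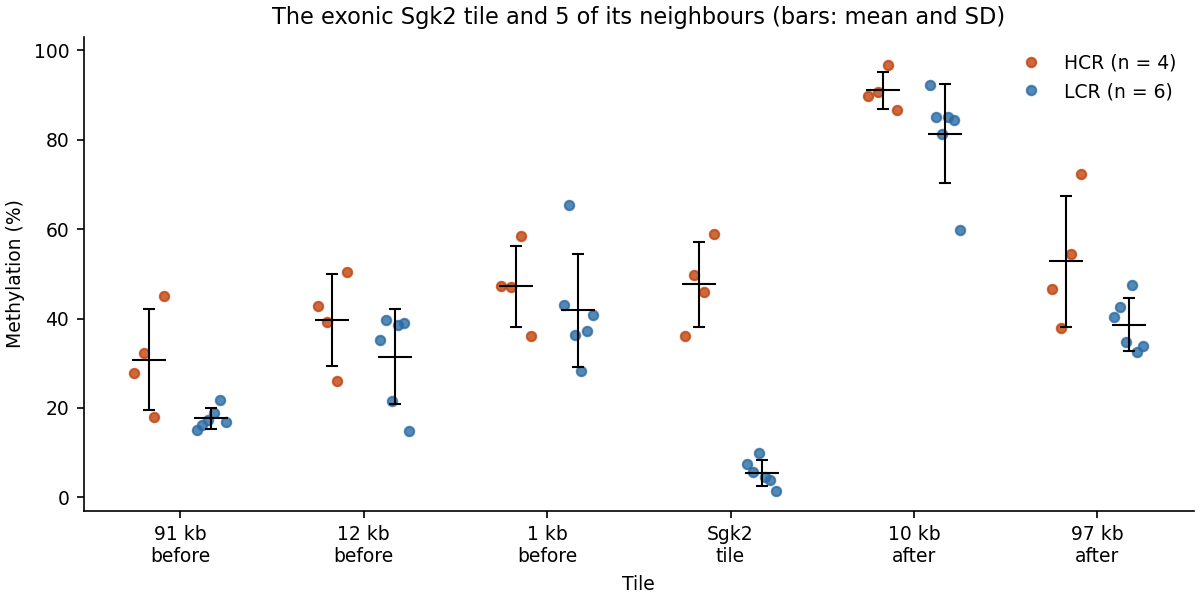
Methylation in percent of the exonic Sgk2 tile and of 5 neighbours, with 1 point per rat and bars for the mean and SD of the 4 HCR and 6 LCR rats. The lines are apart in the exonic tile alone; at 91 kb before, 1 HCR rat at 17.9% lies within the LCR range of 15.2% to 21.8%.

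Other large differences among the neighbours were found in tiles with wide scatter or missing rats. The tile 33 kb before had means of 93.5% ± 5.99 (SD, n = 3) and 73.95% ± 20.2 (SD, n = 4), 19.5 points apart (limma adjusted p = 0.752). LCR rat 24 at 45.7% and LCR rat 18 at 93.6% made up most of that scatter, and HCR rat 15 had no value. The tile 49 kb before went the other way, with 50.7% ± 29.3 (SD, n = 3) against 66.4% ± 9.94 (SD, n = 3) and with HCR rats 11, 15 and 19 at 53.6%, 20% and 78.4%. Its difference of -15.7 points had a limma adjusted p of 0.883. The tile 97 kb after was at 46.7%, 37.9%, 54.4% and 72.3% in HCR rats 1, 11, 15 and 19 and at 32.5% to 47.6% in LCR rats (median 37.5%), and differed by 14.2 points (limma adjusted p = 0.747). Without HCR rat 19, 27 of the 33 neighbours kept enough values to be fitted, and the largest absolute difference among these was 11.1 points. The tile 49 kb before was not among them, and with its 2 remaining HCR rats its difference was -29.6 points. The tile 40 kb after, measured in 3 rats of each line, ranged from 0% to 38.9% in HCR and from 0% to 21.4% in LCR rats (limma adjusted p = 0.879).

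By level, the surroundings of Sgk2 held all kinds of tiles. Of the neighbours, 6 had a mean under 5%, with differences of 0.0477 to 2.63 points and no rat above 7.58%. The tile 16 kb after is among them, with 1.45% ± 0.324 (SD, n = 4) against 1.08% ± 0.223 (SD, n = 6) (limma adjusted p = 0.83). Its difference of 0.369 points turned to -1.54 with the mean of each rat set equal, a step that shifts every tile of a rat alike. The tiles 48 kb and 50 kb after, at 3.94% against 1.92% and 6.13% against 3.5%, had limma adjusted p-values of 0.731 and 0.744. Another 2 neighbours averaged 5 to 20%, 17 lay at 20 to 80% and 8 at 80% or more. The 17 intermediate tiles are the ones most comparable with the exonic tile in HCR rats. In 10 of them HCR rats had the higher mean, and their median range over the rats was 39.8 points. In LCR rats the exonic tile, at 5.54%, lay just above the 6 low tiles, whose means were 0.73% to 3.5% in LCR and 0.89% to 6.13% in HCR rats. The SD of the exonic tile in LCR rats, 2.89, was exceeded in 25 of the 33 neighbours, and that in HCR rats, 9.47, in 15.

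Single rats stood at the edge of many tiles at once. HCR rat 19 was the highest rat in 10 of the 25 neighbours with a value in every rat, and it is also the highest in the exonic tile. This rat had the highest mean over the 126459 tiles of the table that every rat shared, 51.3%, against 43.9% to 49.8% in the other rats. Averaged over the 25 neighbours, HCR rats ranged from 42.6% to 51.6% and LCR rats from 37% to 47.2%. LCR rat 30 was lowest in this average and in the exonic tile, and had the lowest mean of the table, 43.9%. Among HCR rats the order differed between measures, since rat 1 was the lowest in the exonic tile and in the neighbours but rat 15 over the table. With the mean level of each rat as a covariate, the difference at the exonic tile was 39.5 points. Values were missing in 8 of the neighbours, and the libraries with most such gaps were HCR rat 15 and LCR rats 22 and 30, with 4 each. HCR rat 19 and LCR rats 24 and 26 had none.

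Beyond the window, a second large line difference was found 125 kb before the exonic tile. It is described because it was the only tile past the test within 200 kb, and so was chosen after its value was seen. It covers 151531001 to 151532000 and is intergenic or unannotated in the tables of the study. HCR rats 1, 15 and 19 stood at 90%, 85.8% and 85.5%, and the LCR rats with a value at 42.9% to 50% with a median of 45.9%. HCR rat 11 and LCR rat 12 had no value, and the lines did not overlap in the other 8 rats. The means were 87.1% ± 2.52 (SD, n = 3) and 46.3% ± 3.26 (SD, n = 5), a difference of 40.8 points (standard error 5.28, limma adjusted p = 0.0704). Without LCR rat 18, 22, 24, 26 or 30 in turn this call was lost, at limma adjusted p-values of 0.121, 0.125, 0.115, 0.153 and 0.137, the difference staying at 39.9 to 41.7 points. It was also lost after quantile normalization (0.149) and with the mean level (0.149) or the number of missing tiles (0.218) as a covariate. Without HCR rat 1, 15 or 19 too few values remained to fit it. The tile 112 kb before, also chosen after its values were seen, was at 92.9% ± 6.34 (SD, n = 4) and 75.4% ± 5.51 (SD, n = 6) with no overlap (17.4 points, limma adjusted p = 0.266). Between it and the exonic tile lie neighbours that overlapped, so the large differences did not form an unbroken run.

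The surroundings of all called tiles, the exonic Sgk2 tile included, give a measure of how usual this is among called tiles. Of the 151 tiles past the test, 131 had no other called tile within 100 kb, with a median of 20 measured tiles in that range against 33 at Sgk2. The other 20 had at least 1. An adjoining tile was measured for 65 of them, and in 6 it was itself past the test. Over all tested tiles 0.0858% passed, so calls were more frequent beside called tiles than over the table. In the direction of the called tile, the adjoining tile (the larger of both where 2 were measured) differed by a median of 5.48 points, from -34.5 to 63.7. It differed by 10 points or more in 21 of the 65. Of all tested tiles, 13.2% differed by 10 points or more, counted singly and in either direction. The 5.33 points at Sgk2, which are among the values of that median, lie near it. The values with 1 rat left out, 1.57 to 10.03, reach from below to above it.

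Over the whole table, the tiles whose values followed the exonic Sgk2 tile most closely lay on other chromosomes. Of 126458 tiles compared, 178 had a Pearson's r of 0.9 or more with it over the 10 rats. The 5 highest, on chromosomes 5, 8, 4, 10 and 1, had r of 0.97 to 0.98 and lines free of overlap. For the highest, on chromosome 5 (46657001 to 46658000), the HCR mean was 45.1% and the LCR mean 24.3%. The one on chromosome 10 (60695001 to 60696000) is placed by the study's tables in an intron of Rph3al, a gene of regulated exocytosis, and averaged 58.5% and 11.6%. After the mean of each line was removed, r for the 5 was 0.66 to 0.84. Because the exonic tile was picked for its line difference, tiles with a like pattern are largely those with a line difference too, and the likeness is given with no p.

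Related genes were taken from a list of 25 genes of SGK and Akt kinases, their activators and their substrates. For 5 of these genes, Sgk2 included, the rows read from the tables of the study gave a tile. The longest table was read only in part, so other genes of the list may have tiles in the rows not read. None of the 5 tiles of the other genes passed the test in limma, whereas 4 had an unadjusted p under 0.05. Such a p was found for 89.6% of all 2347 tiles read from those tables, against 7.18% of all tested tiles. The study listed them for their difference in the same rats. All 5 were higher in HCR rats, as were 83.1% of the listed tiles, and neither count is independent evidence. An intronic tile of Nedd4l, which encodes the SGK1 substrate NEDD4-2, averaged 78.2% ± 7.25 (SD, n = 4) against 61.7% ± 5.83 (SD, n = 6) (limma adjusted p = 0.451), and HCR rats from 68.1% to 85% did not overlap with LCR rats from 50.6% to 66.6%. An exonic tile of the same gene was at 85.3% and 76.4% (limma adjusted p = 0.665), with overlap. An exonic tile of the kinase gene Akt1 was at 92.3% and 86.2% without overlap (limma adjusted p = 0.552). Intronic Foxo3, a forkhead factor restrained by Akt and SGK1, was at 43.3% and 28.6% (limma adjusted p = 0.655), and a tile upstream of Ndrg2, of the family of the SGK1 substrate NDRG1, at 69.6% and 60.4% (limma adjusted p = 0.721). The largest of these 5 differences was 16.5 points, against 42.1 at Sgk2. Of 23 marker genes of brain cell types, 4 (Cldn5, Flt1, Mag and Rbfox3) had 6 tiles in the rows read. Of these tiles, 5 were higher in HCR rats, and the differences were -11.9 to 31.4 points. None passed the test in limma, and the smallest adjusted p was 0.210. These tiles too were listed by the study for their difference, so that 5 of 6 at an unadjusted p under 0.05 is to be read against the 89.6% of listed tiles, not the 7.18% of all tested tiles. In DNA from whole hippocampus a different share of cell types and a different methylation within cells cannot be told apart, and methylation of these genes does not check the tissue label. The part of cell types in the Sgk2 difference was not tested, and neither was that of DNA sequence differences between the lines.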

How the data were processed

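Hippocampal RRBS libraries of 4 HCR and 6 LCR rats were used, grouped by the phenotype in the sample labels. Reads were trimmed by the authors (Trim Galore 0.6.10) and aligned to mRatBN7.2 (Bismark, Bowtie2), and calls were filtered on coverage and summed per tile in methylKit. The deposited table gives each rat's percent methylation in each tile, without read counts, so the study's chi-square test on counts was not run. An empty cell was taken as no value.

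Lines were compared by limma 3.58.1 in R 4.3.3 on the percent values, using a mean-variance trend without covariates, in 176004 tiles with at least 3 values per line (28 tiles with no spread were left out). The Benjamini-Hochberg adjustment covered all of these tiles. The fit was run on simulated data with known differences as a check of the code. The simulated noise was independent between tiles and rats. The share of differences recovered at the adjusted limit is not reported here. Summaries and figures used Python 3.11.15, pandas 2.3.3 and Matplotlib 3.10.9. The window, gene lists and tests were chosen with earlier results of these data known. Tiles described singly were the nearest 3 on each side, the 5 with the largest difference and the 5 with the smallest p. Genes and features came from the study's tables (2347 tiles read, the longest table in part). Alternatives were the logit scale, complete tiles, 2 values per line, no trend, equal means, quantile normalization, 2 covariates, other limits and windows, and leaving out each rat. The VO2max values were not analysed here.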

Additional observations from a re-analysis of the deposited data

Results flagged for a closer look

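Of 58 sets of values of 1 line in 1 tile of the window, 5 held a rat far from the others of its line by Dixon's ratio, where chance gives about 1 in 20. LCR rat 30 was low in 2 tiles, at 20.5% in the tile 77 kb before, where the other LCR rats stood at 64.6% to 77.7%, and at 59.9% in the tile 10 kb after, where the others stood at 81.3% to 92.2%. HCR rat 15 was at 40.5% in the tile 68 kb after, against 80.8% to 84.9% in the other HCR rats. LCR rat 24 was at 49.7% in the tile 50 kb before, against 18.7% to 28.2%. LCR rat 18 was at 2.55% in the tile 49 kb after, against 1.44% to 1.83%. Neither line held such a rat in the exonic Sgk2 tile.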

How the results depend on the processing

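The difference at the exonic Sgk2 tile was 37.9 to 46.01 points over 18 alternative fits. The tile was picked for this difference in the same rats, so the range is a description and no support for it. The logit scale, complete tiles, 2 values per line and no trend cannot change this estimate, which was 42.1 points in each. No neighbour that could be fitted passed the test under any of them, or at the stricter limits, the smallest adjusted p being 0.292. With each rat left out in turn, 27 to 33 neighbours kept enough values to be fitted. Of these, 0 to 1 had an unadjusted p under 0.005 with 5 points, 0 to 3 had lines free of overlap (3 without HCR rat 15, 1 without LCR rat 12), and the largest difference was 11.1 to 26.1 points. The low end, without HCR rat 19, leaves out the tile 49 kb before, at -29.6 points with 2 HCR rats. A window of 200 kb either side held 1 tile past the test, 2 at an unadjusted p under 0.005, 1 free of overlap and a largest difference of 40.8 points. The largest difference became -17.9 points with rat means set equal and -25.3 with the mean level as a covariate, both at the tile 49 kb before; for these the cause was not tested. Of 226 alternative values of the 14 neighbours described singly, 2 reversed, at 16 kb after (-1.54 points, rat means set equal) and at 1 kb before (-0.634, quantile normalization). Requiring 2 values per line changed nothing, since every tile has 3. Overlap stayed at 0 neighbours with rat means set equal and was not recomputed after quantile normalization or with a covariate, and no coverage minimum could be varied. No paired analysis was possible because the lines share no rat numbers.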
